A study of Mus musculus with 12 samples.

Results

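The response of C18-4 cells to shM5 was examined gene by gene. C18-4 is an immortalised mouse line kept as a model of spermatogonial stem cells, the germ line cells from which sperm production starts. The comparison set 3 libraries of shM5-treated cells against 3 libraries of shNC-treated cells, which are 6 of the 12 libraries of the series. The other 6 came from TM4, a mouse Sertoli cell line with the same treatments. Both arms of C18-4 cells carried a lentiviral shRNA vector and had the strain label IRC, while the study's methods name ICR mice. shM5 was a mixture of 3 shRNAs against the mRNA of the M5 muscarinic receptor, and shNC was a single control sequence, so the arms also differed in the number of shRNAs. No other agent, time or age was given. Values were RPKM, reads on a gene scaled to gene length and library size. Of the 17995 genes listed, 11611 averaged 0.5 RPKM or more in the 6 libraries and were tested, with no other selection of genes.

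Muscarinic receptors are G protein-coupled receptors for acetylcholine. Those of the odd-numbered class, to which M5 belongs, signal mainly by way of Gq. The second messengers made by phospholipase C then release calcium from stores and switch on protein kinase C, and MAPK signalling is one of the routes that can follow. In the testis such receptors are carried by germ cells and by somatic cells, and spermatogonial stem cells are usually recognised by Gfra1, Ret, Zbtb16 and Ddx4.

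The 6 libraries differed little in their sum of RPKM, from 506413 to 540231, and 14308 to 14566 genes were above 0 in each. The numbers of reads behind the values are not known. The replicate number entered the fit as a block by plan. Deviations from the group means across the 11611 genes correlated at 0.44, 0.41 and 0.63 between same-numbered libraries of replicates 1, 2 and 3. Replicates 1 and 2 also correlated at 0.34 when crossed between the arms, so the pairing rests mainly on replicate 3. Both replicate 3 libraries stood apart from the rest. Hspa8, the constitutive cytosolic chaperone of the HSP70 family, was at 1003 and 871 RPKM in shNC and shM5 replicate 3 and between 1710 and 2001 RPKM in the other 4 libraries. Values are therefore given by library for many genes, and the counts of many lists also without replicate 3. Nothing in the labels says that the libraries came from separate cultures, so the tests measure the spread between these libraries, which may be technical.

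The mRNA of the target itself could not be followed. Chrm5, which encodes M5, had 0.01 RPKM in shNC replicate 2, and the other 5 libraries listed it at 0. Chrm3 was listed at 0 RPKM in all 6 libraries, and Chrm4 lay between 0.16 and 0.32 RPKM with the groups overlapping. Chrm1, which encodes M1, was at 0.52, 0.68 and 0.72 RPKM in the shNC libraries and at 0.18, 0.12 and 0.29 RPKM in the shM5 libraries. Its groups did not overlap, but its mean was under the minimum for the test, and in a fit of every gene above 0 its log2 fold change of -1.35 had an adjusted p of 0.0828 (limma). Downstream of the receptors, 17 genes of muscarinic, Gq and phospholipase C signalling could be tested, and 1 of them was called, a share of 5.88% against 11.9% over all genes. This was Gnaq, the α subunit of Gq, at 14.8, 15.9 and 18.1 RPKM in shNC and 10.95, 10.8 and 12.5 RPKM in shM5 libraries. Its log2 fold change was -0.51 ± 0.06 (moderated SE, n = 3 per group, adjusted p = 0.00368, limma). A moderated SE draws on the spread of all genes, so it can be smaller or larger than that of the gene's own 3 replicate ratios. Every shM5 library was below every shNC library for Gnaq. The list had 2 called genes without replicate 1 and 4 without replicate 3.

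The germ line label was set against cell type markers. Of 17 spermatogonial stem cell markers with values, 11 had a mean under 0.5 RPKM. Gfra1 was between 0.12 and 0.34 RPKM, and Ret, Zbtb16, Ddx4, Dazl and Lin28a did not pass 0.05 RPKM in any library. The markers above the minimum were Etv5, Id4, Itga6, Uchl1, Taf4b and Eomes, of which Uchl1, a ubiquitin hydrolase abundant in neurons and spermatogonia, was the highest. Of these 6, 1 was called, higher with shM5. The 17 summed to 93.1 to 135 RPKM in shNC and 138 to 157 RPKM in shM5 libraries. Of 19 markers of differentiating and meiotic germ cells, 15 had a mean under 0.5 RPKM. Of 14 Sertoli markers with values, 9 had a mean under 0.5 RPKM. Sox9 and Amh did not pass 0.16 RPKM, while Wt1 was between 53.9 and 72.3 RPKM. Gata4, Inha, Inhbb and Rhox5 were above the minimum too, and of these 5 tested markers 2 increased and 1 decreased. The 14 summed to 66.0 to 72.2 RPKM in shNC and 75.4 to 82.5 RPKM in shM5 libraries. Upk3b, a uroplakin of epithelial surfaces, was between 590 and 774 RPKM. Leydig cell and endothelial markers summed to at most 1.24 RPKM in each library, and leucocyte markers to between 2.76 and 5.12 RPKM. Among the latter Ptprc was at 0.01 to 0.04 RPKM and Adgre1 listed at 0, while Cd68 and Cd14 were above the minimum, with means of 3.04 and 0.527 RPKM in shNC and 2.24 and 0.697 RPKM in shM5 libraries. The defining stem cell markers were thus at or near 0 RPKM, and the libraries are called here by the name of the line.

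With shM5, 1386 of 11611 genes were called at an adjusted p below 0.05 (limma, log2(RPKM + 0.1), replicate block), which is 11.9% of the genes tested. shM5 increased 605 genes (5.21%) and decreased 781 genes (6.73%). The changes were mostly small. The median absolute log2 fold change of the called genes was 0.37, and 406 of them passed 0.5. An absolute log2 fold change of at least 1 was reached by 78 called genes (0.672%), 20 higher and 58 lower, so larger changes were more often decreases. At the threshold of the study, an adjusted p of at most 0.001 with an absolute log2 fold change of at least 1, there were 9 genes (0.0775%; 47, 72 and 48 without replicate 1, 2 or 3, and 0 without the block, where 1425 had an unadjusted p below 0.05, limma). The 9 were Acta2 and Peg3, which increased, and Slpi, Xdh, Syt7, Mt2, Gm40814, Lox and Rnf130, which decreased. The lowest shM5 library lay above the highest shNC library, or the reverse, in 2189 genes (18.9%), among them 428 of those increased and 523 of those decreased. Without the replicate block, which removes shifts that libraries of equal number share, 68 genes were called, 34 in each direction, all of them among the 1386. The muscarinic and Gq, contractile, tubulin, ribosomal, semaphorin, axon guidance, matrix protease, interferon, complement, cytokine receptor, TGF-β and BMP, metallothionein and zinc, NRF2, glycolysis and hypoxia, cholesterol, retinoid, cell cycle, splicing, proteasome and oxidative phosphorylation lists then had no called member (limma). The same held for the stem cell and Sertoli markers and for the ATF4 and fatty acid synthesis lists. The other lists whose called members are counted here had 1 to 3, with the most among the matrix crosslinking genes. With a replicate number left out, 790 (without replicate 1), 920 (without replicate 2) and 3362 genes (without replicate 3) were called, in the last case 1636 increased and 1726 decreased. The shares over all genes were 6.80%, 7.92% and 28.96%, against which the lists' counts with a replicate left out are to be read. The called shares given for lists with all 3 replicates are to be read against 11.9%.

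**Figure D1:**
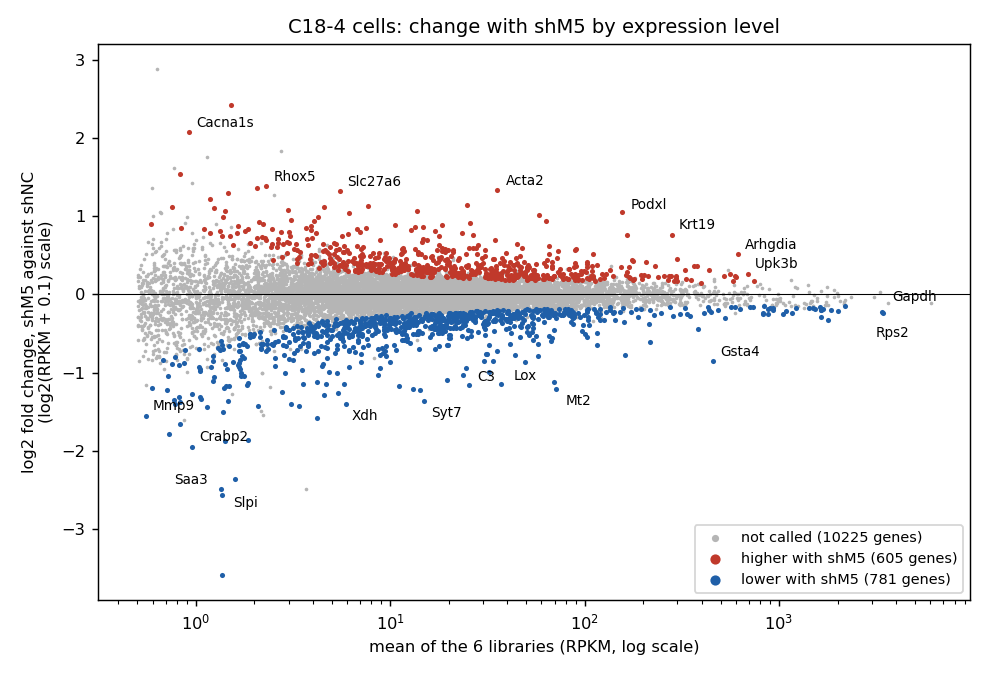
Log2 fold change of each tested gene (shM5 against shNC, on the log2(RPKM + 0.1) scale) against its mean RPKM over the 6 C18-4 libraries on a log axis. Red points are the 605 genes increased and blue points the 781 genes decreased by shM5, and grey points were not called. The larger changes lie on the lower side, from Mmp9 and Slpi at low levels to Gsta4 at a high level.

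The share of called genes was 10.3% among the 3870 genes with the lowest means, 11.5% among the next 3870 and 14.0% among the 3871 with the highest. The most abundant genes that increased were Myl12a, Upk3b, Arhgdia, Myl6 and Hspa5. Myl12a and Myl6 encode light chains of nonmuscle myosin. Arhgdia, which encodes a GDP dissociation inhibitor, was at 515, 519 and 483 RPKM in shNC and 738, 742 and 693 RPKM in shM5 libraries, a log2 fold change of 0.52 ± 0.04 (adjusted p = 0.000848, limma). The most abundant genes that decreased were Rps2, Gapdh, Tpt1, Rpl12 and Rpl6, with log2 fold changes from -0.24 to -0.15.

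Genes of the contractile cytoskeleton were among those increased. Of 31 tested genes of contractile actin and of the targets of serum response factor (SRF), the factor that couples actin assembly to transcription, 10 increased and 1 decreased, a called share of 35.5%. The list's median log2 fold change was 0.12 against -0.0024 over all genes tested. The increased members numbered 3 without replicate 1, 4 without replicate 2 and 17 without replicate 3. Acta2, smooth muscle α-actin, was at 23.7, 19.8 and 15.9 RPKM in shNC libraries and at 56.7, 61.8 and 34.6 RPKM in shM5 libraries. All shM5 libraries were above all shNC libraries, and replicate 3 was the lowest of each group. The log2 fold change was 1.34 ± 0.09 (moderated SE, n = 3 per group, adjusted p = 0.000608, limma, and 0.0764 without the block). Tagln, an actin-bundling protein of smooth muscle, was at 45.9, 48.8 and 36.0 RPKM with shNC and 93.3, 87.1 and 69.4 RPKM with shM5, a log2 fold change of 0.93 ± 0.05. Its groups did not overlap either.

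The other members of the contractile list moved less. Myl9, the regulatory light chain of smooth muscle myosin, was at 6.35, 6.81 and 6.28 RPKM with shNC and at 13.3, 13.7 and 6.48 RPKM with shM5. Its rise therefore lay in replicates 1 and 2, and replicate 3 was within the shNC range. Flna and Flnc (filamins, which crosslink actin), Filip1l, Tagln2 and Myh9 (nonmuscle myosin heavy chain) increased by log2 fold changes between 0.21 and 0.35. The member that decreased was Csrp2, a LIM protein, at -0.39. Of other smooth muscle markers, Myh11 was at 0.01 to 0.07 RPKM, and Cnn1, Des and Smtn were not called. The summed level of the 10 myoid and smooth muscle markers was 84.0 to 109 RPKM in shNC and 135 to 187 RPKM in shM5 libraries, most of it Acta2 and Tagln, and its part in the other results was not tested.

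The promoter of Myl9 is shown because it holds a CArG box, the binding element of SRF, which was searched by name on both strands with any A or T at its 6 inner bases. The sequence is from RefSeq (GRCm38.p6, plus strand, chr2:156775214-156775513), 250 bases before the start of the gene to 50 after it, with the match in capitals.
Myl9: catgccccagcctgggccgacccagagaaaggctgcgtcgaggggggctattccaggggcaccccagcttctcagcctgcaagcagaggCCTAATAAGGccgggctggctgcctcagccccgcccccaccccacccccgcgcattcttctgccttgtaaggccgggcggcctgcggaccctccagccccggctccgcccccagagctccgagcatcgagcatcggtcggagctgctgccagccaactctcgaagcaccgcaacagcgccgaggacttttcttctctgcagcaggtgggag
The CArG match starts 161 bases before the start of Myl9. A match was held by 1.81% of all 27025 genes with a promoter sequence, by 1.63% of the genes tested, by 15 of the 473 increased genes with a sequence (3.17%) and by 13 of the 610 decreased genes (2.13%). These are descriptions of letters in a window and not of bound sites.

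Intermediate filaments were called in 1 direction, with a called share of 33.3%. All 5 called genes among 15 intermediate filament genes increased, namely Krt19, Krt18 and Krt80 (keratins of epithelial cells), Nes (nestin) and Lmnb1 (lamin B1). There were 7 increased and 3 decreased members without replicate 3, and 5 increased without either of the others. Krt19 was at 198, 190 and 236 RPKM in shNC libraries and at 379, 369 and 313 RPKM in shM5 libraries. The highest shNC library stayed below the lowest shM5 library, and the log2 fold change was 0.77 ± 0.10 (adjusted p = 0.0042, limma; 0.042 without the block). The 10 epithelial markers summed to 263 to 322 RPKM with shNC and 419 to 472 RPKM with shM5, nearly all of it Krt18 and Krt19. Krt8 and Epcam were not called, Cdh1 (E-cadherin) did not pass 0.07 RPKM, and Krt5 and Cldn3 were listed at 0. The part of these markers in the results was not tested.

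Of 28 tubulin and microtubule genes, 4 increased and 0 decreased (limma, 7 and 3 at an unadjusted p below 0.05), a called share of 14.3%, which is near the 11.9% over all genes. They were Tubb3, Mapre2, Tuba1a and Mapre1, at log2 fold changes from 0.20 to 0.45. Leaving out replicate 1, 2 or 3 gave 1, 2 and 9 increased members, in the last case with 3 decreased.

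The MAPK feedback list holds mainly phosphatases and inhibitors that are induced by MAPK signalling and dampen it. It also holds genes that are neither, such as Hbegf, a ligand of the EGF receptor. Its lowest member, not called, had a log2 fold change of -0.26. Those called were higher with shM5. Of 26 tested, 8 increased and 0 decreased (limma, 12 and 0 at an unadjusted p below 0.05), with a median log2 fold change of 0.25 and 7 members lower. The called share was 30.8% against 11.9% over all genes, and 13 increased without replicate 3. Dusp16, a phosphatase of JNK and p38, was at 8.93, 8.70 and 10.7 RPKM in shNC and 16.8, 17.8 and 17.1 RPKM in shM5 libraries, a log2 fold change of 0.86 ± 0.08 (adjusted p = 0.00153, limma; 0.0367 without the block). Dusp6, the cytosolic phosphatase of ERK, was at 12.5, 13.6 and 15.8 RPKM and at 21.7, 21.4 and 21.6 RPKM. For both genes every shM5 library was above every shNC library. Dusp8, Spry1, Dusp1, Hbegf, Dusp4 and Dusp14 completed the group, with log2 fold changes from 0.27 to 0.63.

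The immediate early genes, which are induced through the same pathway, were divided. Of 24 tested, 4 increased and 5 decreased, a called share of 37.5% (10 and 6 genes without replicate 3). Fosl1, a partner of Jun in AP-1, was at 11.9, 12.4 and 4.04 RPKM in shNC libraries and at 5.34, 5.83 and 3.11 RPKM in shM5 libraries, and its groups overlapped because of shNC replicate 3. Junb, Egr1, Klf10 and Fosl2 also decreased, while Btg2, Mafk, Atf3 and Dusp1 increased.

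Several of the largest increases were in single genes of the cell surface. Podxl, a sialomucin of the apical surface, was at 88.4, 92.6 and 124 RPKM in shNC libraries and 214, 213 and 199 RPKM in shM5 libraries (log2 fold change 1.05 ± 0.10, adjusted p = 0.00193, limma). Mcam, an adhesion molecule of the immunoglobulin family, was at 34.6, 35.4 and 46.3 RPKM and at 78.6, 79.0 and 75.7 RPKM. For both genes every shM5 library was above every shNC library, as was required of the largest changes named. Cd81, a tetraspanin, was at 116, 118 and 137 RPKM and at 210, 212 and 203 RPKM, and Itgb3, the integrin β3 subunit, rose by a log2 fold change of 0.94 ± 0.10.

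Semaphorins, secreted or membrane-bound guidance cues, had 4 increased members and 0 decreased members of 14 tested (limma, 5 and 1 at an unadjusted p below 0.05), a called share of 28.6%. Sema3e was at 3.85, 4.05 and 6.80 RPKM with shNC and at 9.91, 10.3 and 11.3 RPKM with shM5, a log2 fold change of 1.13 ± 0.13 (adjusted p = 0.0028, limma; 0.0901 without the block). Sema3d, Sema3b and Sema4a increased by 0.65, 0.55 and 0.40. Nrp1, a receptor of some semaphorins, increased by 0.70 and Plxnd1, the plexin that binds Sema3e, decreased by 0.70 on the log2 scale. In the wider list of 43 axon guidance genes 6 increased and 4 decreased, a called share of 23.3% (10 and 4 genes without replicate 3). Among those decreased were the ephrins Efna3 and Efna1 and the receptor Ephb2.

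**Figure D2:**
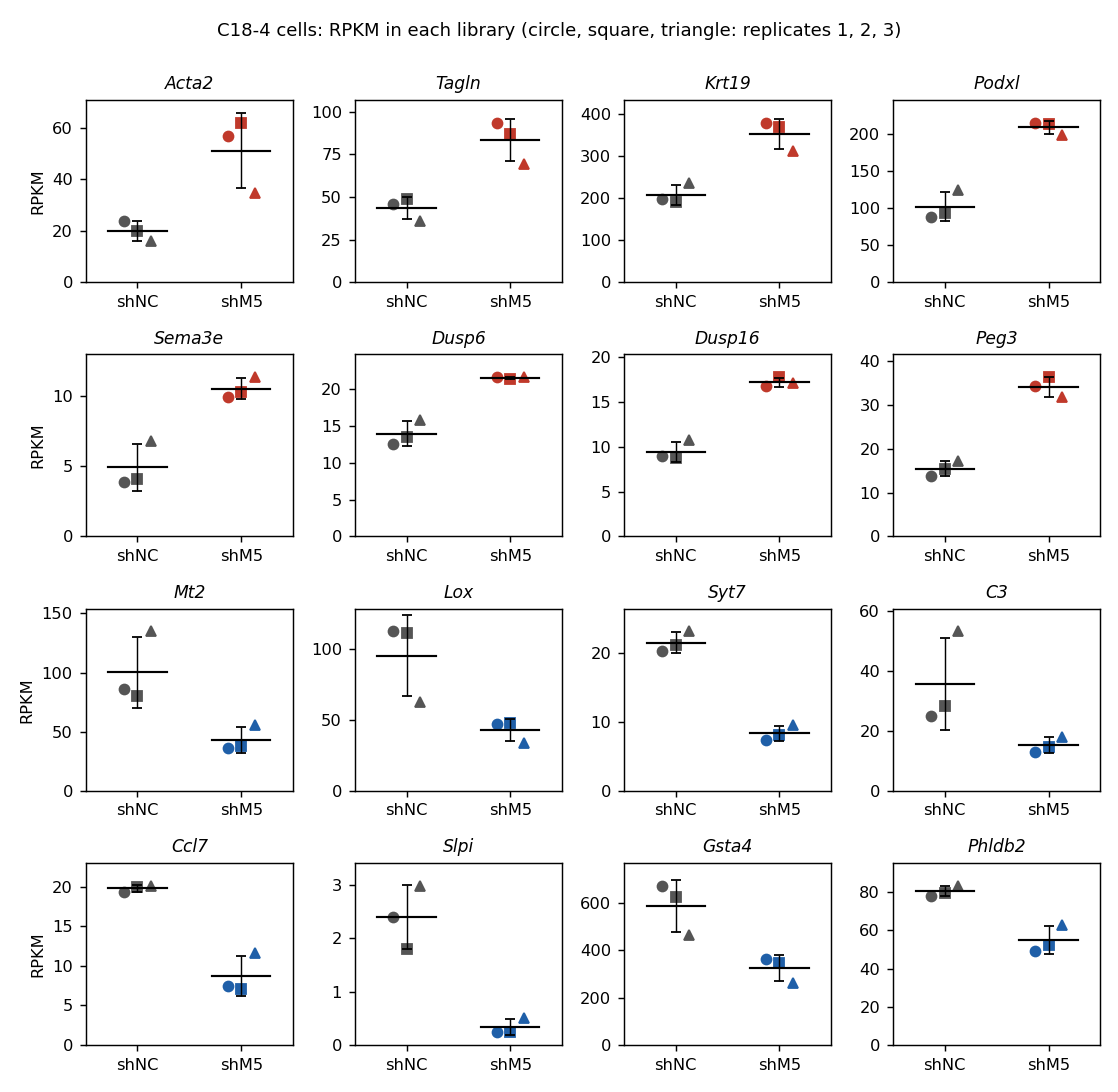
RPKM of 16 genes in each of the 6 C18-4 libraries, on linear axes from 0, with the mean (line) and SD (bar, n = 3). Circles, squares and triangles are replicates 1, 2 and 3, grey for shNC, red for a gene increased and blue for a gene decreased by shM5. In each panel the shNC and shM5 libraries do not overlap, and replicate 3 often lies apart from the other 2 libraries of its group.

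Other genes among the 15 largest increases had varied roles. Peg3, an imprinted zinc finger gene, was at 13.7, 15.4 and 17.1 RPKM with shNC and 34.3, 36.2 and 31.7 RPKM with shM5 (log2 fold change 1.14 ± 0.09, adjusted p = 0.000848, limma; 0.0332 without the block). Skp2, the F-box protein through which p27 is degraded, was at 18.8, 18.3 and 15.95 RPKM and at 34.8, 36.3 and 29.4 RPKM. Slc27a6, a fatty acid transporter, was at 2.57, 2.78 and 4.12 RPKM and at 7.90, 7.15 and 8.68 RPKM. For these 3 genes the groups did not overlap, which was a condition for the 15. Nbl1 (a BMP antagonist), Taf9b (a subunit of the general transcription machinery), Lrrn4, Tnc (tenascin C), Cmtm4 and Galnt12 made up the rest, with log2 fold changes from 0.85 to 1.07.

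The matrix genes were split by kind. Of 18 collagens, 5 increased and 3 decreased, a called share of 44.4% (8 and 4 genes without replicate 3). Col3a1 was at 71.9, 72.2 and 72.4 RPKM in shNC and 110, 113 and 103 RPKM in shM5 libraries (log2 fold change 0.59 ± 0.05), and the basement membrane chains Col4a1 and Col4a2 increased by 0.35 and 0.42. Col5a3, Col6a1 and Col6a2 decreased, Col5a3 by 0.93 on the log2 scale. Col1a1 and Col8a1 increased by 0.20 and 0.38, so the fibrillar chains were called in both directions, the basement membrane chains upwards and the 2 chains of collagen VI downwards.

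Among 21 matrix crosslinking and small proteoglycan genes, 2 increased and 7 decreased, a called share of 42.9% (6 and 7 genes without replicate 3). Called or not, 11 of the 21 were higher and 10 lower, with a median log2 fold change of 0.01. Lox, the lysyl oxidase that crosslinks collagen and elastin, was at 113, 111 and 62.6 RPKM with shNC and at 47.0, 48.2 and 33.8 RPKM with shM5, a log2 fold change of -1.12 ± 0.07 (adjusted p = 0.000464, limma; 0.13 without the block). Replicate 3 was low in both groups, and the groups did not overlap. Fbln2 (fibulin 2), Ogn, Bgn and Fmod (small proteoglycans), Fbln1 and Loxl4 decreased too, whereas Loxl2 and Plod1 increased. Phldb2, a protein that anchors microtubules at the cell cortex near focal adhesions, was at 78.2, 79.7 and 83.4 RPKM with shNC and at 49.4, 52.4 and 63.0 RPKM with shM5 (log2 fold change -0.56 ± 0.06, adjusted p = 0.0025, limma; 0.0768 without the block). In its list of 39 integrin and focal adhesion genes 7 increased, with Ilk, Tln1 and Itgb1 among them, and 4 decreased, a called share of 28.2%. The counts were 3 and 1 without replicate 1, 3 and 3 without replicate 2, and 15 and 6 without replicate 3.

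Matrix metalloproteinases, which degrade matrix proteins, and protease inhibitors both had more decreased than increased members. Of 10 Mmp genes, 0 increased and 5 decreased (limma, 0 and 5 at an unadjusted p below 0.05), a called share of 50.0%. They were Mmp9, Mmp13, Mmp19, Mmp14 and Mmp2 (2 decreased without replicate 1), and 9 of the 10 had a fold change below 0. With a minimum of 2 RPKM, 6 Mmp genes were tested, 2 decreased and the median log2 fold change was -0.04. The first 3 were low. Mmp9, a gelatinase, was at 1.03, 0.79 and 0.78 RPKM and fell to 0.18, 0.38 and 0.16 RPKM. It passed the minimum for the test only through its shNC libraries. Of 19 protease inhibitors, 1 increased and 8 decreased (2 and 8 without replicate 3), with a called share of 47.4% and a list median of -0.19. Slpi, an inhibitor of leucocyte elastase, was at 2.41, 1.80 and 2.99 RPKM in shNC libraries and at 0.24, 0.25 and 0.50 RPKM in shM5 libraries, a log2 fold change of -2.56 ± 0.19 (adjusted p = 0.000872, limma; 0.0367 without the block). Serpinf1 and the metalloproteinase inhibitors Timp1, Timp3 and Timp2 decreased, with Timp3 at 122, 127 and 155 RPKM against 88.7, 91.3 and 107 RPKM. Of the other proteases, Plat (tissue plasminogen activator) increased from 16.3, 17.3 and 26.6 RPKM to 33.1, 32.6 and 33.6 RPKM.

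Among genes of inflammation and innate defence more decreased than increased. Of 35 chemokines, cytokines and NF-κB targets, 1 increased (Ccl20) and 7 decreased, a called share of 22.9%. Of the list 27 were lower, with a median log2 fold change of -0.17 (3 increased and 13 decreased without replicate 3). Ccl7, a chemokine that attracts monocytes, was at 19.4, 20.0 and 20.2 RPKM with shNC and at 7.44, 7.05 and 11.6 RPKM with shM5 (log2 fold change -1.22 ± 0.12, adjusted p = 0.00213, limma; 0.0467 without the block). Saa3, an acute phase protein, was at 2.13, 1.55 and 3.15 RPKM and at 0.15, 0.16 and 0.94 RPKM. Lcn2, which binds bacterial siderophores, was at 3.90, 4.81 and 15.7 RPKM and at 2.02, 2.04 and 6.27 RPKM. Its shM5 replicate 3 lay within the range of the shNC libraries, and within each replicate number the shM5 library was the lower.

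Of 12 complement and coagulation genes, 2 increased (Procr and Plaur) and 3 decreased, a called share of 41.7%. C3, the central complement component, was at 25.0, 28.3 and 53.1 RPKM in shNC libraries and 12.9, 14.7 and 17.96 RPKM in shM5 libraries (log2 fold change -1.15 ± 0.12, adjusted p = 0.00206, limma; 0.158 without the block). C1s1 and C1ra, proteases of the C1 complex, decreased as well, and C1ql1, a C1q-like protein outside the list, decreased by 1.01 on the log2 scale. Cd74, the invariant chain of MHC class II, was at 14.0, 13.4 and 28.6 RPKM with shNC and 6.83, 7.04 and 8.84 RPKM with shM5. shNC replicate 3 was the highest library for C3, Cd74 and Lcn2. Of 42 interferon response genes 0 increased and 3 decreased (limma, 3 and 7 at an unadjusted p below 0.05). This share of 7.14% was below the 11.9% over all genes (1 and 4 called without replicate 2, 4 and 7 without replicate 3). Leucocyte markers did not pass a sum of 5.12 RPKM in any library.

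Receptors for these signals were mostly not called, and those called were mostly lower. Of 32 cytokine receptor, JAK-STAT and SOCS genes, 1 increased and 8 decreased, a called share of 28.1% (1 and 3 genes without replicate 1, 5 and 8 without replicate 3). Called or not, 16 were higher and 16 lower, with a median log2 fold change of -0.01. Osmr, a receptor subunit for oncostatin M, was at 9.04, 10.52 and 14.0 RPKM in shNC and 5.94, 6.05 and 8.77 RPKM in shM5 libraries (log2 fold change -0.68 ± 0.07). Il4ra, Il13ra1, Il1r1, Ifnar2 and Jak2 decreased, and Socs2, an inhibitor of growth hormone signalling, increased from 16.3, 14.5 and 16.9 RPKM to 25.3, 22.7 and 22.95 RPKM. Among 43 TGF-β and BMP genes 3 increased and 10 decreased (1 and 4 without replicate 1, 2 and 4 without replicate 2, 10 and 10 without replicate 3). The called share was 30.2%, while the median of the list was -0.02 and turned to 0.01 after quantile normalization. Tgfbr3, Tgfbr2, Tgfb3 and Ltbp1 decreased together with the inhibitors Smad7 and Smad6 and the targets Id1 and Id3, and Nog, Gdf6 and Gdf15 increased.

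Genes of metal handling included strong decreases. Of 20 metallothionein and zinc transport genes, 1 increased and 4 decreased, a called share of 25.0% (3 and 4 genes without replicate 3). The list as a whole did not lean down, with 11 genes higher, 9 lower and a median log2 fold change of 0.02. Metallothioneins are small cysteine-rich proteins that bind zinc and copper and are induced by metals through the factor Mtf1. Mt2 was at 85.7, 80.1 and 135 RPKM in shNC libraries and at 35.9, 37.5 and 55.7 RPKM in shM5 libraries, a log2 fold change of -1.21 ± 0.05 (adjusted p = 0.000158, limma; 0.0985 without the block). Mt1 was at 161, 159 and 295 RPKM and at 95.0, 102 and 155 RPKM, a log2 fold change of -0.78 ± 0.06. The groups did not overlap for either gene, narrowly so for Mt1. Replicate 3 was the highest of each group for both genes, and within each replicate number the shM5 library was the lower. The zinc exporter Slc30a3 decreased by 1.15 and the importer Slc39a10 by 0.52 on the log2 scale.

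The promoters of Mt1 and Mt2 are shown because both genes decreased and are known for their metal response elements (MRE, letters TGCNCNC, N for any base, searched on both strands). Both are from RefSeq (GRCm38.p6, plus strand), Mt1 at chr8:94178839-94179138 and Mt2 at chr8:94172368-94172667, with the matches in capitals.
Mt1: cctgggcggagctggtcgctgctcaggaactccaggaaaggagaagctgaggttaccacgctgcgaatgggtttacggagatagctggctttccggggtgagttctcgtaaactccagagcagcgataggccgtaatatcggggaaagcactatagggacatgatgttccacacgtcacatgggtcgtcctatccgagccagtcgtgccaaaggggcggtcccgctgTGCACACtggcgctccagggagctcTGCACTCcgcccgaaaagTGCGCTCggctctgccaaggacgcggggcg
Mt2: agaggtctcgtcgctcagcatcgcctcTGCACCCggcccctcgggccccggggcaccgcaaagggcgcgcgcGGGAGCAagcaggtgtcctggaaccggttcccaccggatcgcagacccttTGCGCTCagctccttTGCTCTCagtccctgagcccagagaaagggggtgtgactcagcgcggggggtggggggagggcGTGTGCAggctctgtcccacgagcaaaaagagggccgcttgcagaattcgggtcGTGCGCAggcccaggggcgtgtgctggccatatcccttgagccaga
The Mt1 window holds 3 matches and the Mt2 window 6. These letters are common, held by 53.6% of all promoters and by 64.9% of those of tested genes, with 66.4% among increased and 69.5% among decreased genes. So a match is not particular to these promoters.

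Of 17 iron and copper genes, 1 increased and 6 decreased, a called share of 41.2% (0 and 4 genes without replicate 1 and also without replicate 2, 4 and 7 without replicate 3). Cp, ceruloplasmin, the copper oxidase of plasma, was at 11.6, 12.5 and 23.1 RPKM with shNC and 6.07, 6.94 and 6.73 RPKM with shM5 (log2 fold change -1.17 ± 0.16). Steap3, a metalloreductase of the transferrin cycle, was at 2.10, 2.25 and 1.75 RPKM and at 0.93, 0.85 and 0.75 RPKM. Tfrc, the transferrin receptor, increased by 0.26, and Fth1, the ferritin heavy chain, decreased by 0.17 on the log2 scale.

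Enzymes and secretory proteins were among the other large decreases. Gsta4, a glutathione transferase that conjugates lipid aldehydes, was at 674, 626 and 463 RPKM in shNC and 364, 347 and 262 RPKM in shM5 libraries (log2 fold change -0.85 ± 0.04, adjusted p = 0.000158, limma; 0.104 without the block). Xdh, which makes urate from purines, was at 7.15, 7.59 and 11.5 RPKM and at 2.91, 3.14 and 3.50 RPKM. Syt7, a calcium sensor of exocytosis, was at 20.2, 21.2 and 23.1 RPKM and at 7.36, 8.14 and 9.48 RPKM, a log2 fold change of -1.36 ± 0.07. In these 3 genes the groups did not overlap, as in 18.9% of all genes tested. Of 42 NRF2 target and glutathione genes 5 increased and 8 decreased, a called share of 31.0% (2 and 5 genes without replicate 2). Gsta3, a close relative of Gsta4, increased from 0.77, 0.44 and 0.82 RPKM to 1.93, 1.74 and 1.38 RPKM. Reads of such related genes may be split unevenly by the counting. Rnf130, a RING ubiquitin ligase, and the predicted genes Gm40814, Gm43828, Gm42102 and Gm40595 decreased by 0.94 to 1.15 on the log2 scale.

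Several glycolysis genes and hypoxia targets decreased. Of 36 tested, 0 increased and 10 decreased (limma, 1 and 15 at an unadjusted p below 0.05), a called share of 27.8%. In all 29 were lower, and the median log2 fold change was -0.21. Bnip3, a mitophagy receptor induced by hypoxia, was at 28.9, 26.0 and 43.0 RPKM in shNC libraries and at 16.6, 16.03 and 16.9 RPKM in shM5 libraries (log2 fold change -0.94 ± 0.11, adjusted p = 0.00342, limma; 0.0891 without the block). The oxygen sensors Egln1 and Egln3, Eno2, Ndrg1 and Hif1a decreased. Gapdh, Aldoa and Pgk1, enzymes of glycolysis, decreased by 0.22, 0.23 and 0.24 on the log2 scale. Gapdh was at 3733, 3615 and 3545 RPKM with shNC and 3224, 3162 and 2960 RPKM with shM5, so the groups did not overlap although the change was small. The median of the list was -0.10, -0.07 and -0.29 in replicates 1, 2 and 3, the lowest in replicate 3. Without replicate 2, 16 members decreased, and without replicate 3, 3 increased and 12 decreased.

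A minority of the ribosomal proteins of the cytosol were called, each lower by a small amount. Of 82 tested, 0 increased and 28 decreased (limma, 0 and 55 at an unadjusted p below 0.05), a called share of 34.1%. In all 78 were lower than in shNC libraries (59 after quantile normalization, with 9 decreased). The 28 became 7 without replicate 1, 10 without replicate 2, 57 without replicate 3 (with 1 increased) and 1 without the mean-variance trend. The median log2 fold change was -0.13, and -0.05 after quantile normalization. Rps2 was at 3929, 3834 and 3388 RPKM in shNC and 3243, 3107 and 3070 RPKM in shM5 libraries, a log2 fold change of -0.24 ± 0.05 (adjusted p = 0.0167, limma; 0.327 without the block). Rplp0 and Rpsa, of the large and the small subunit, decreased by 0.32 and 0.29 on the log2 scale. The largest decrease was that of Rps27l, a relative of Rps27 induced by p53, from 169, 156 and 99.9 RPKM to 103, 89.1 and 75.3 RPKM, with overlapping groups. Ribosomal protein genes have many processed copies, so that counting can misplace their reads. Of 84 ribosome biogenesis genes 0 increased and 1 decreased (limma, 4 and 8 at an unadjusted p below 0.05), and of 78 mitochondrial ribosomal proteins 1 increased and 3 decreased (limma). Their called shares were 1.19% and 5.13%. Both lists changed without replicate 3, to 2 increased and 26 decreased, and to 1 increased and 18 decreased. The median log2 ratio of the biogenesis genes was -0.10, -0.06 and 0.17 in replicates 1, 2 and 3, so their sign differed between replicates.

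**Figure D3:**
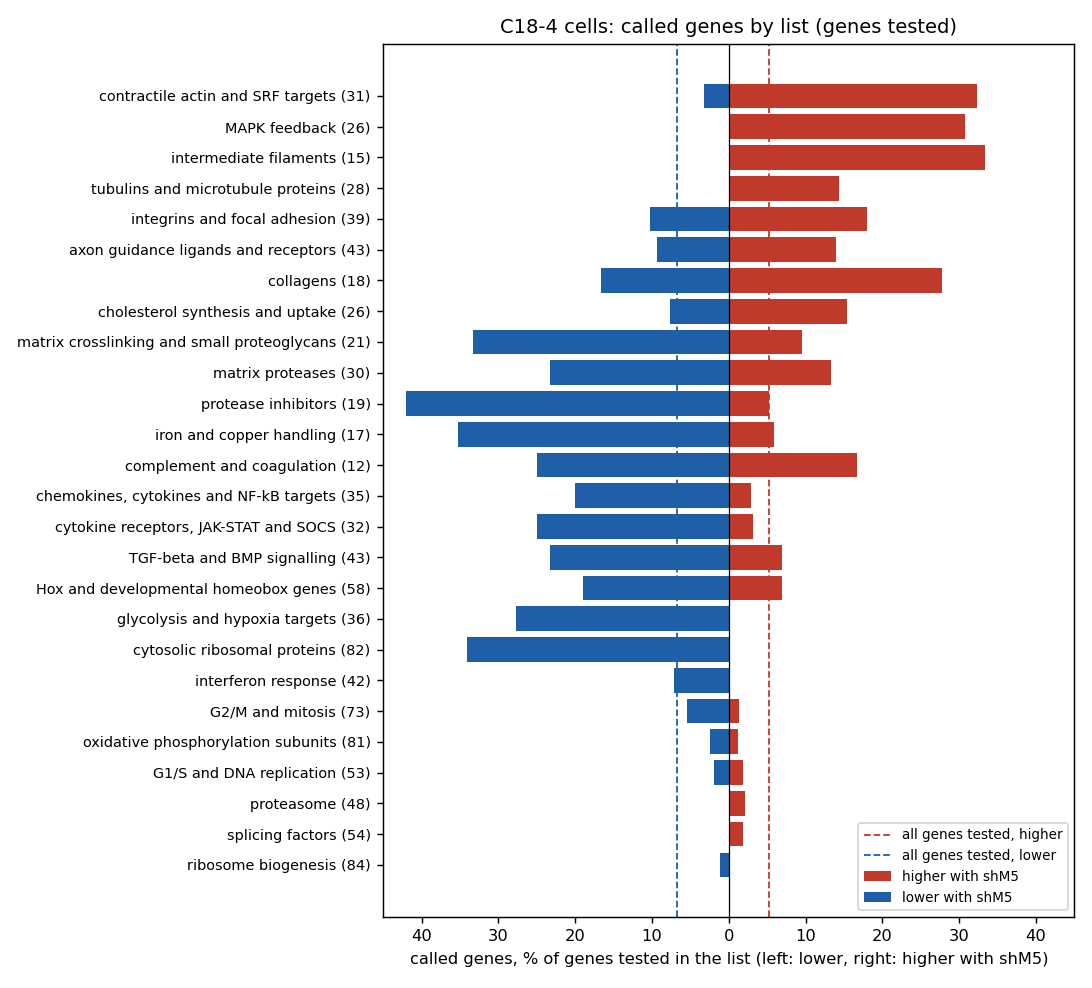
Called genes of each list as % of its tested genes (number in brackets), increased by shM5 to the right in red and decreased to the left in blue. Dashed lines mark 5.21% and 6.73%, the shares over all 11611 genes tested. Cytoskeletal and MAPK feedback lists extend to the right, ribosomal proteins, glycolysis and protease inhibitors to the left, and cell cycle, splicing, proteasome and ribosome biogenesis lists stay near 0, which was not so without replicate 3.

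More developmental transcription factors decreased than increased. Of 58 Hox and developmental homeobox genes, 4 increased and 11 decreased, a called share of 25.9% (2 and 7 genes without replicate 2, 6 and 15 without replicate 3). The fold change was below 0 in 44, with a median log2 fold change of -0.14. Prrx1 and Prrx2, homeobox genes of mesenchyme, had the largest decreases of the list. Prrx2 was at 11.6, 12.5 and 10.4 RPKM with shNC and at 7.32, 6.65 and 6.49 RPKM with shM5 (log2 fold change -0.74 ± 0.08). The repressors Snai1 and Zeb1, which act against epithelial genes, decreased by 0.47 and 0.46 on the log2 scale. Hoxc4, Hoxc10 and Hoxc13 decreased while Hoxb6 and Hoxb9 increased, and Meis1, a cofactor of Hox proteins, increased by 0.56. Rhox5, an X-linked homeobox gene of the reproductive tract outside this list, was low and went from 1.42, 1.99 and 0.55 RPKM to 3.24, 4.18 and 2.48 RPKM, with no overlap (log2 fold change 1.39 ± 0.20).

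Lipid genes moved in both directions. Pparg, the nuclear receptor of fat storage, was at 2.2, 1.84 and 1.92 RPKM in shNC libraries and 0.84, 1.02 and 0.61 RPKM in shM5 libraries (log2 fold change -1.20 ± 0.18). Among 26 cholesterol genes 4 increased and 2 decreased, a called share of 23.1% (3 and 0 genes without replicate 1 or without replicate 2). Idi1, an isomerase of the mevalonate pathway, was at 10.8, 10.9 and 6.16 RPKM and at 18.2, 17.95 and 12.5 RPKM, and Sqle and Srebf2 increased as well, while Mvk and Tm7sf2 decreased. Scd1, the desaturase of stearate, decreased by 0.46 on the log2 scale. Of 16 retinoid and sterol receptor genes 0 increased and 3 decreased (limma, 0 and 5 at an unadjusted p below 0.05, and 1 and 4 called without replicate 3), a called share of 18.8%. Those decreased included Crabp2, a retinoic acid binding protein, from 1.87, 1.74 and 1.04 RPKM to 0.71, 0.16 and 0.24 RPKM.

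Several large cell functions had few called genes with all 3 replicates. Among 53 genes of the G1/S step and DNA replication 1 increased and 1 decreased, and among 73 of G2/M and mitosis 1 increased and 4 decreased (limma). Of 54 splicing factors 1 increased, of 48 proteasome genes 1 increased, and of 81 oxidative phosphorylation subunits 1 increased and 2 decreased. These shares, 1.85% to 6.85% of each list, were below the 11.9% over all genes. This rested on replicate 3. Without it 15 of the G1/S genes, 21 of the G2/M genes, 14 of the splicing factors, 13 of the proteasome genes and 21 of the oxidative phosphorylation subunits were called, shares near the 28.96% over all genes. Single cell cycle genes did change. The cyclin-dependent kinase inhibitor Cdkn1c, which is imprinted, decreased from 4.15, 5.07 and 8.35 RPKM to 2.31, 2.60 and 2.68 RPKM, a log2 fold change of -1.12 ± 0.15.

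The symbol stems shared by at least 8 tested genes gave 191 families, and 5 of them had at least 4 called genes, at least 80% of these in 1 direction and a called share at least 2 times that over all genes. They were Dusp and Sema, in which 6 of 19 and 4 of 14 genes increased, and Mmp, Rps and Rpl, in which 5 of 10, 12 of 41 and 13 of 49 decreased. No family of these had a call in the other direction. The lowest Dusp gene, not called and not in the MAPK feedback list, had a log2 fold change of -0.72. Of the 19, 1 was lower at an unadjusted p below 0.05 (limma). All 5 families overlap the lists above and are no separate evidence. With a minimum of 2 RPKM, 2 of 6 Mmp genes decreased. Without replicate 1, 2 or 3 the decreased members numbered 2, 2 and 29 for Rps and 2, 5 and 29 for Rpl.

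The replicates were compared through the ratio of each shM5 library to the shNC library of the same number, which use separate libraries. Across the 11611 genes, as a description, the ratios of replicates 1 and 2 correlated at r = 0.64, and those of replicate 3 at r = 0.38 and 0.41 with replicates 1 and 2. Of 947 genes with an absolute log2 ratio of at least 0.5 in replicate 1, 89.9% had the same sign in replicate 2 and 79.2% in replicate 3. Over all 11611 genes these shares were 76.3% and 61.3%. The semaphorins had median log2 ratios of 0.33, 0.30 and -0.03, and the intermediate filaments 0.27, 0.11 and -0.03, so that the middle of each list was near 0 in replicate 3. The members called increased, such as Sema3e and Krt19, were higher in shM5 in replicate 3 too. MAPK feedback genes (0.24, 0.30 and 0.21) and ribosomal proteins (-0.16, -0.12 and -0.12) had medians of 1 sign in all 3 replicates.

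**Figure D4:**
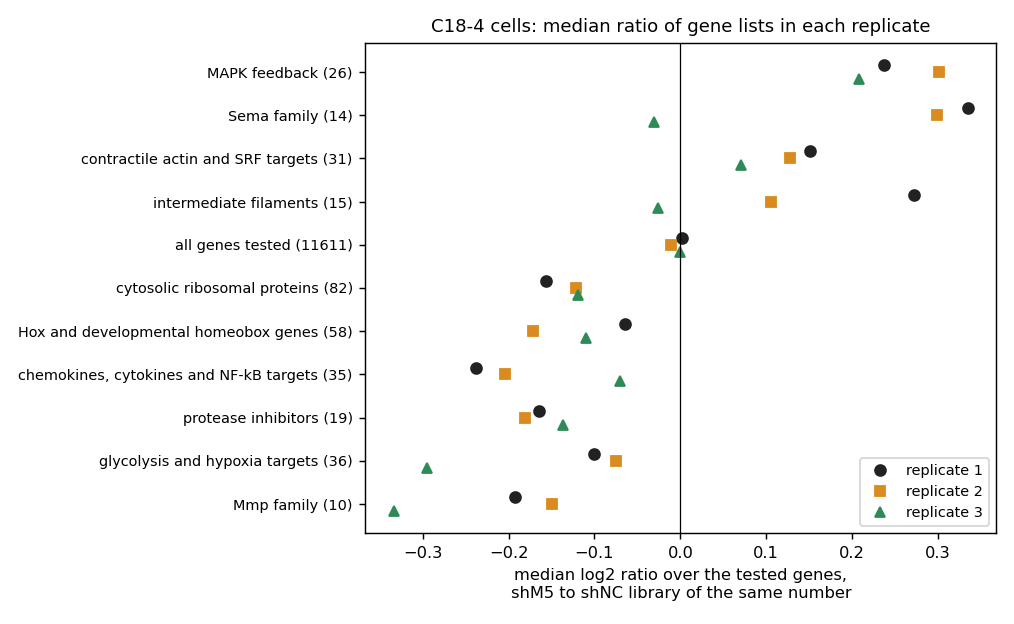
Median log2 ratio of the shM5 to the shNC library of the same replicate number over the tested genes of each list or family (number in brackets). Circles, squares and triangles are replicates 1, 2 and 3. The medians of all genes lie near 0, MAPK feedback and contractile genes lie to the right in all 3 replicates, semaphorins and intermediate filaments in replicates 1 and 2, and the lower 6 lists to the left in all 3.

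The promoter windows of increased and decreased genes held the searched motifs at shares near those of all tested genes, with some differences. The interferon stimulated response element (a pair of GAAA copies 2 bases apart, both strands) was in 5.90% of decreased and 1.69% of increased genes, against 3.55% of the genes tested. The TATA box (TATAAA) was in 12.5% of increased and 10.98% of decreased genes, against 8.17%. AP-1 elements (TGANTCA) were in 8.03% of increased and 6.07% of decreased genes, against 5.60%, and the TEAD element (GGAATG) in 19.5% and 14.9%, against 14.3%. The searches counted letters in windows of equal length, and overlaps between motifs were not removed.

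The genes called were spread over all chromosomes, with placement taken from the RefSeq gene table. The share called per chromosome was between 7.62% (chromosome 12) and 15.7% (chromosome 18). On chromosome 5, 21 of 744 tested genes increased and 79 decreased, and the median log2 fold change of all its genes was -0.05. On chromosome 8, 56 of 639 increased and 37 decreased, with a median of 0.04.

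The response was set against that of TM4 cells in 1 fit of all 12 libraries with a block in each line. Of 11773 genes, 2 differed between the lines at an adjusted p below 0.05 (0.017%, limma), and both decreased in C18-4 cells. Slpi was at 52.5, 50.7 and 68.9 RPKM in TM4 shNC and at 56.4, 56.0 and 53.3 RPKM in TM4 shM5 libraries, so the line in which it was abundant showed overlapping groups. Gsta4 was at 2.23, 2.45 and 2.80 RPKM and at 3.66, 3.22 and 3.59 RPKM in TM4 cells, opposite in direction to C18-4 cells. For all other genes named above a difference between the lines was not shown, which does not show that the lines responded alike.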

How the data were processed

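mRNA of C18-4 cells was enriched with oligo(dT), sequenced on an Illumina HiSeq and mapped by the authors with SOAPaligner. The authors converted reads per gene to RPKM and deposited these with 2 decimals, so read numbers and their error are unknown. Genome build and annotation are not given in the sources used here.

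Group and replicate came from the labels. Every column was matched to 1 library. For genes averaging 0.5 RPKM or more, log2(RPKM + 0.1) was fitted with limma 3.58.1 (R 4.3.3), with group and replicate number as terms, eBayes and a mean-variance trend. Adjusted p is by Benjamini-Hochberg over the 11611 genes. Each ± value is the moderated SE of limma, which draws on the spread of all genes and is not the spread of a gene's own replicate ratios. Replicate numbers were taken to pair the libraries. Same-numbered libraries deviated together (correlations 0.44, 0.41 and 0.63), but mainly through replicate 3. No library was left out. Fold changes on this scale understate those of low genes. The minimum was on the mean of both groups, so genes low in 1 group, such as Mmp9, Slpi, Saa3, Crabp2, Stmn4 and Cacna1s, passed it only through the other group. The study instead used a test on reads with a false discovery rate of 0.001.

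The lists (74, by symbol), the families and the comparison were chosen with earlier results of these data known, and 1 list lost Rhox5, a wrong match of its symbol pattern, after values were seen. Named genes were, per direction, the 15 largest changes with a mean of at least 5 RPKM and no overlap, the 5 most abundant, those past the threshold of the study, up to 4 per list, the muscarinic receptors, Phldb2 and the markers. The remaining genes named as further members of lists and families, and Upk3b and Hspa8 as examples of level, were chosen after their values were seen. Promoters and motifs were read with Python 3.11.15 from the RefSeq table (GRCm38.p6), which held 473 of the 605 increased and 610 of the 781 decreased genes. The main fit was tested on simulated data. Chrm2 was not analysed here, and 1 list and 1 gene are not reported here.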

Additional observations from a re-analysis of the deposited data

Results flagged for a closer look

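The shM5 effect differed between the cell lines in 2 genes by the test of that difference. The log2 fold change of Slpi was -2.56 in C18-4 and -0.04 in TM4 cells, a difference of -2.52. That of Gsta4 was -0.85 in C18-4 and 0.47 in TM4 cells, a difference of -1.33. Both had an adjusted p of 0.0493 (limma, 11773 genes), with 3274 genes at an unadjusted p below 0.05. Neither call remained without replicate 1 or without replicate 2, where 0 genes were called (505 and 484 at an unadjusted p below 0.05).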

How the results depend on the processing

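The count of 1386 called genes stayed between 1226 and 1396 with a pseudocount of 1 or 0.01, a minimum of 2 RPKM, equal library medians or quantile normalization. It was 68 with no replicate block, 6 with no filter on low values (3535 at an unadjusted p below 0.05), 535 without the mean-variance trend, 9 at the threshold of the study, and 790 to 3362 when a replicate was left out, the highest without replicate 3. Of these 3362, 1636 increased and 1726 decreased. Genes past the fold threshold numbered 78, but 23 with no replicate block, 27 with a pseudocount of 1, 2 with no filter, 37 with a minimum of 2 RPKM, and 92 to 112 with a replicate left out. Of 247 called named genes, 34 were called with no replicate block, 5 with no filter, 120 without the trend and 174 to 246 with a replicate left out. None of the 247 changed direction under any of these settings, and 5 of the 20 named genes that were not called did. The settings on block, filter, trend and the minimum of 2 RPKM leave each fold change as it was, so the direction could not change there. Called genes were also selected for a difference large against its spread, so their kept direction is no separate evidence. Lists with a called share at least 2 times that of all genes numbered 25, but 4 with no filter and 8 to 26 with a replicate left out, the lowest without replicate 3, where far more genes were called overall. Genes that differed between the lines numbered 2, but 12 with no replicate block and 0 to 6844 with a replicate left out. The cause was not tested for any of these. The same-numbered pairs rest mainly on replicate 3, since shNC replicate 2 also correlated with shM5 replicate 1 at 0.34. Depth is unknown, so low values such as those of Mmp9 or Saa3 have no counting error.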

Other observations

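Some genes with large changes lay under the level required for naming, and were chosen after their values were seen. Stmn4, a stathmin that binds tubulin, had the largest increase among called genes, from a mean of 0.387 to 2.66 RPKM, a log2 fold change of 2.42. Cacna1s, a subunit of the skeletal muscle calcium channel, was at 0.20, 0.38 and 0.31 RPKM in shNC and 1.48, 1.83 and 1.36 RPKM in shM5 libraries. Alpl, the tissue-nonspecific alkaline phosphatase, decreased from a mean of 6.40 to 2.02 RPKM, and Cebpa, a factor of fat and myeloid cells, from 1.73 to 0.73 RPKM. Fabp4, a fatty acid binding protein of adipocytes, decreased from 1.71 to 0.567 RPKM. The largest decrease among called genes, LOC100862468, was at 3.92 and 4.23 RPKM in shNC replicates 1 and 2, and the other 4 libraries listed it at 0. S100a16 decreased from 2.64, 3.41 and 2.86 RPKM to 0.73, 0.55 and 0.99 RPKM.

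Fgf21, a hormone of the stress response, was at 14.2, 14.2 and 65.4 RPKM in shNC libraries and at 5.78, 7.56 and 34.6 RPKM in shM5 libraries. Both replicate 3 libraries stood above the other 4, and within each replicate number the shM5 library was the lower, with a log2 fold change of -1.03 (adjusted p = 0.00104, limma; 0.708 without the block). Of 36 ATF4 target and amino acid supply genes, 5 increased and 5 decreased, a called share of 27.8% (2 and 4 genes without replicate 2).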
